A study of Mus musculus with 9 samples.

Results

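The data describe 10 macrophage genes in mouse hearts. They were chosen by name as 3 genes carried by macrophages in general (Adgre1, Cd68, Csf1r), 4 genes of tissue-resident macrophages (Cd163, Mrc1, Lyve1, Folr2), 1 gene of recruited monocytes (Ccr2) and 2 genes of lipid-associated macrophages (Trem2, Gpnmb), out of 41710 gene names in the count table. All 10 passed the filter on low counts and were among the 15504 genes tested. Cardiac RNA came from 3 groups of 3 male mice on an FVB/N background, each killed at 8 months: controls without a transgene (FVB), mice carrying a transgene for Raf kinase inhibitor protein (Tg-RKIP) and mice carrying one for G-protein-coupled receptor kinase 2 (Tg-GRK2). The RKIP transgene was driven by the alpha-MHC promoter, which is active in cardiac myocytes and not in macrophages, and the sources describe the Tg-RKIP mice as having heart failure. The comparisons ask how genes of resident and of recruited macrophages differ in whole hearts of the transgenic mice.

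The heart holds several kinds of macrophage. Resident cells, many of them seeded before birth, sit beside vessels and myocytes, clear debris and carry scavenger receptors such as CD163, the mannose receptor MRC1, the hyaluronan receptor LYVE1 and the folate receptor FOLR2. Circulating monocytes enter injured tissue through the chemokine receptor CCR2, and many of them become macrophages that depend, like resident cells, on the CSF1 receptor. Macrophages that take up lipid and cell debris can gain TREM2, a lipid-sensing receptor that signals through the adaptor TYROBP, and GPNMB, a glycoprotein of lysosomal membranes. Lymphatic endothelial cells also carry LYVE1. In RNA of whole hearts, more cells of a type and more RNA per cell cannot be told apart.

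The libraries held 25458108 to 33447654 reads. Pebp1, which encodes RKIP, rose in Tg-RKIP by 4.81 on the log2 scale against FVB (adjusted p = 4.04e-33), whereas Grk2 did not pass the test in the libraries labelled Tg-GRK2 (0.05, adjusted p = 0.354), so the label of that group was not borne out at the level of this gene. Whether reads of the GRK2 transgene would be counted as mouse Grk2 is not given in the sources used here. Replicate 1 of that group stood apart through 18S ribosomal RNA, with 384039 reads of Rn18s against 57869 and 55110 in the other libraries of the group, and results that rest on it are given with and without it. Mitochondrial genes took 11.7% ± 0.16 of the reads in Tg-RKIP and 23.1% ± 0.16 in FVB (mean ± s.d., n = 3). Levels are given as TPM, transcript abundance scaled for transcript length and library total, and differences as log2 fold changes ± SE from read counts with edgeR's quasi-likelihood test, scaled by the trimmed mean of M values (TMM) and adjusted over all genes tested by Benjamini-Hochberg. The scaling matters in Tg-RKIP, because the median log2 fold change of all genes against FVB was 0.01 with TMM and 0.38 when counts were scaled to library size only.

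In the hearts of FVB mice, Csf1r had the highest level of the 10 genes per length (19.1 ± 0.21 TPM). Lyve1 (13.3 ± 0.45 TPM), Folr2 (12.9 ± 0.89 TPM) and Mrc1 (12.2 ± 0.29 TPM) came next, with ranges that overlapped between neighbours in this order. Cd68, Cd163 and Adgre1 followed with separate ranges. Trem2 (3.04 ± 0.36 TPM) and Ccr2 (2.39 ± 0.30 TPM) overlapped, and Gpnmb was lowest (0.730 ± 0.24 TPM), from 35 to 46 reads a library. The resident genes Lyve1, Folr2 and Mrc1 thus stood above the other members except Csf1r in the control heart. In Tg-RKIP the order differed: Csf1r was still first, but Cd68 came second and Trem2 overlapped with Lyve1. All 10 members had TPM values in Tg-RKIP that lay above every FVB value, as did 64.3% of all genes tested.

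**Figure D1:**
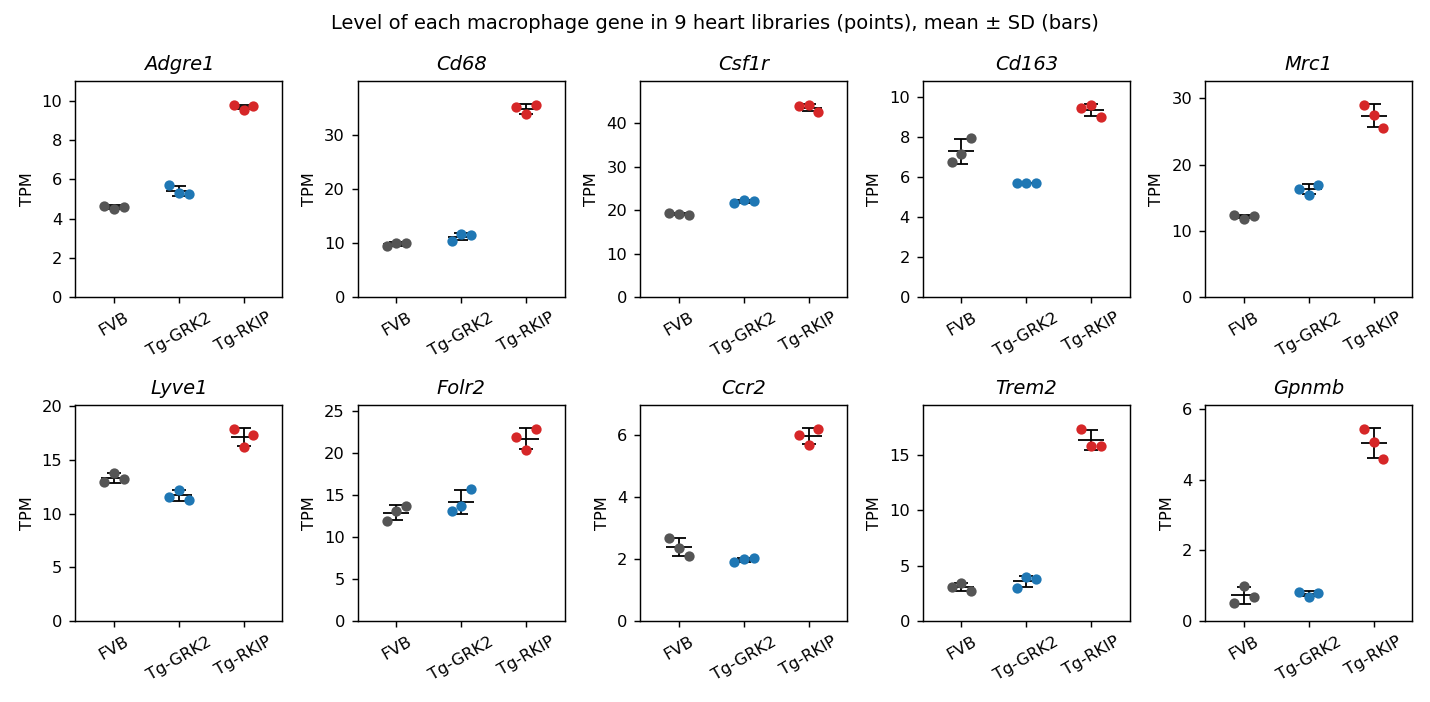
Level in TPM (vertical axes, each starting at 0) of the 10 macrophage genes in each of the 9 heart libraries (points), with the mean and s.d. of each group (bars). All 10 genes were higher in the Tg-RKIP libraries than in every FVB library on this scale, from 1.28-fold for Cd163 to 6.89-fold for Gpnmb, whereas with TMM scaling Cd163 was lower and Lyve1 did not pass the test.

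In Tg-RKIP hearts, the macrophage genes were raised unequally. Gpnmb and Trem2 rose most, Cd68, Ccr2, Csf1r and Adgre1 rose by less, Mrc1 and Folr2 least, and Lyve1 and Cd163 did not rise beyond the median gene. Of the 10 members, 8 were higher and 1 (Cd163) was lower than in FVB, while Lyve1 did not pass the test. Over all genes tested, 36.8% were higher and 37.1% lower in this comparison. The median log2 fold change of the members was 0.73, beside 0.01 over all genes. With library-size scaling, 10 members were called higher, beside 62.6% of all genes.

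Among the genes of macrophages in general, Csf1r encodes the receptor that keeps macrophages alive. It was at 43.9, 44.1 and 42.6 TPM in the 3 Tg-RKIP libraries and at 19.3, 19.2 and 18.9 TPM in the 3 FVB libraries. The groups lay far apart, with little spread within either, and the log2 fold change was 0.79 ± 0.03 (adjusted p = 7.05e-17). Cd68, a glycoprotein of late endosomes and lysosomes that marks phagocytic cells, was at 35.2, 33.8 and 35.5 TPM in Tg-RKIP and at 9.54, 10.03 and 10.06 TPM in FVB. It rose by more than Csf1r (1.20 ± 0.06, adjusted p = 1.03e-13). Adgre1, which encodes the macrophage surface receptor F4/80, was at 9.78, 9.55 and 9.73 TPM against 4.67, 4.49 and 4.59 TPM (0.66 ± 0.06, adjusted p = 9.1e-10). Csf1r shares exon sequence with Hmgxb3, which had 250 to 485 reads a library, and whether the counting used strand is not given in the sources used here.

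The resident genes moved least. Mrc1, the mannose receptor, was at 29.0, 27.5 and 25.6 TPM in Tg-RKIP and at 12.5, 11.9 and 12.3 TPM in FVB, a log2 fold change of 0.50 ± 0.04 (adjusted p = 4.17e-11). Folr2 was at 21.9, 20.4 and 22.9 TPM against 11.9, 13.1 and 13.7 TPM (0.33 ± 0.08, adjusted p = 0.000695). Both genes were separate between the groups, Mrc1 by the wider margin. Folr2 overlaps the gene model Gm10602, which had 82 to 190 reads a library.

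Lyve1 and Cd163 depended on the scaling. Lyve1 was at 17.9, 16.2 and 17.3 TPM in Tg-RKIP and at 12.9, 13.8 and 13.3 TPM in FVB, so every Tg-RKIP library was above every FVB library on this scale. With TMM it did not pass the test (-0.06 ± 0.05, adjusted p = 0.228), and with library-size scaling it was higher (0.31, adjusted p = 2.88e-06), which is below the shift of 0.38 of the median gene under that scaling. Cd163, the scavenger receptor for haptoglobin-bound haemoglobin, was at 9.45, 9.62 and 9.05 TPM against 6.78, 7.16 and 7.99 TPM. Its log2 fold change was -0.15 ± 0.06 with TMM (adjusted p = 0.0165) and 0.22 with library-size scaling (adjusted p = 0.000866), again below the shift of the median gene. The lower call of Cd163 was lost without FVB replicate 3 (-0.10, adjusted p = 0.127) and without Tg-RKIP replicate 3 (-0.14, adjusted p = 0.0554). Relative to the median gene, neither resident gene was raised in Tg-RKIP.

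Ccr2, the receptor that draws monocytes from blood into tissue, was at 6.02, 5.69 and 6.21 TPM in Tg-RKIP and at 2.70, 2.38 and 2.11 TPM in FVB. The groups did not overlap, and the log2 fold change was 0.91 ± 0.08 (adjusted p = 7.5e-10), between those of Csf1r and Cd68. Most reads of the gene in Tg-RKIP (320, 385 and 330 in the 3 libraries) were assigned to a transcript of a single exon, Ccr2_4.

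The lipid-associated genes rose most. Trem2 was at 17.3, 15.8 and 15.8 TPM in Tg-RKIP, where it had 292 to 384 reads a library, and at 3.05, 3.41 and 2.68 TPM in FVB, where it had 56 to 80 reads. Its log2 fold change was 1.97 ± 0.11 (adjusted p = 4.13e-13), a 3.93-fold difference with TMM. The call was lost when only the most abundant transcript stood for the gene (1.57, adjusted p = 0.106). That transcript, Trem2_3, had 193, 263 and 192 reads in Tg-RKIP, and 60, 58 and 46 in FVB. In the libraries labelled Tg-GRK2, which share the fit, it had 0, 43 and 62 reads. Why the call was lost was not tested. Gpnmb was at 5.43, 5.07 and 4.58 TPM against 0.521, 0.992 and 0.676 TPM. The lowest Tg-RKIP library was well above the highest FVB library, and the log2 fold change was 2.70 ± 0.11 (adjusted p = 2.42e-15), a 6.49-fold difference. Of the 15504 genes tested, 212 had a larger log2 fold change than Gpnmb and 440 a larger one than Trem2, whereas 8502 exceeded Lyve1.

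The start regions of the genes were read for letters that factors of macrophages and lysosomes are known to bind. RefSeq windows of the 250 bases before the start (build GRCm38.p6) were at hand for 7 of the 10 members (Mrc1, Gpnmb, Cd163, Folr2, Ccr2, Cd68 and Trem2), and not for Adgre1, Csf1r and Lyve1. Searched on both strands were GAGGAA, the core letters bound by PU.1, the factor that specifies macrophages, and CACGTG and CATGTG, the E-box letters bound by MITF and TFE factors, which act on lysosomal genes and on Gpnmb. GAGGAA was found in the windows of 3 members (Cd68, Trem2 and Mrc1) and in 23.3% of all 32851 windows of this length. CATGTG was found in 2 members (Mrc1 and 1 of the 2 windows of Folr2) and in 12.3% of all windows, and CACGTG in 0 members and 6.02% of all windows. Shown are the windows of the 3 genes that rose most in Tg-RKIP against FVB, and that of Mrc1, which held the most matches. Capitals mark GAGGAA or CATGTG on either strand. A match describes the letters only.
Gpnmb (chr6:49036268-49036517, plus strand): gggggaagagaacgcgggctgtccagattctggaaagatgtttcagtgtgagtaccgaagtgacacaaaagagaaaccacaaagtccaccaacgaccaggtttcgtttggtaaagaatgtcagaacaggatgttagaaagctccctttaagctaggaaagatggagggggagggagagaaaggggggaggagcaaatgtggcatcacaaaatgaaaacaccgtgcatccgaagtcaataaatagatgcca
Trem2 (chr17:48346151-48346400, plus strand): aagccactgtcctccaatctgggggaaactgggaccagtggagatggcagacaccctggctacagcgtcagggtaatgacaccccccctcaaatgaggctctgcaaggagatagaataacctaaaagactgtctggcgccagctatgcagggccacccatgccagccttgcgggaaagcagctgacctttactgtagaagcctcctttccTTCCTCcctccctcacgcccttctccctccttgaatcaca
Cd68 (chr11:69666171-69666420, minus strand): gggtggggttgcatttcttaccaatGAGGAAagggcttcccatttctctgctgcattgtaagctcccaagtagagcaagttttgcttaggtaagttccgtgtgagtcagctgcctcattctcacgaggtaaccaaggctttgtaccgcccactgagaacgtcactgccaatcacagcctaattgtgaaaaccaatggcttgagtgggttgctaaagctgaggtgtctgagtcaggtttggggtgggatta
Mrc1 (chr2:14229164-14229413, plus strand): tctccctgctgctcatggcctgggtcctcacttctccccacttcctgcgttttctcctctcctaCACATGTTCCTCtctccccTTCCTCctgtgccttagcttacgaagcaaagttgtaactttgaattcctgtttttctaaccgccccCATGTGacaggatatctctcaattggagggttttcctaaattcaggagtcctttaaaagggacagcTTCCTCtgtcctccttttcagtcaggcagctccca
In Trem2 the match began 40 bases before the start, on the opposite strand, and in Cd68 225 bases before it. Mrc1 held 3 matches to GAGGAA on the opposite strand, beginning 180, 167 and 35 bases before the start, beside 2 matches to CATGTG. The window of Gpnmb, the member that rose most, held none of the 3 sets of letters.

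The libraries labelled Tg-GRK2 differed less from FVB, in both directions and by small amounts. Mrc1, Adgre1 and Csf1r were higher, Cd163, Ccr2 and Lyve1 were lower, and Cd68, Folr2, Trem2 and Gpnmb did not pass the test. The 3 members called higher compare with 12.2% of all genes tested, and the 3 called lower with 12.2%. None of the 6 differences exceeded a fold of 1.5 when tested against that size (glmTreat of edgeR, 0 members and 1% of all genes called, against 6 members in the test of no change). This comparison and that of Tg-RKIP share the 3 FVB libraries.

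Mrc1 had the largest rise in the libraries labelled Tg-GRK2, with 16.4, 15.5 and 17.0 TPM, all above the FVB libraries (log2 fold change 0.38 ± 0.04, adjusted p = 1.26e-07). Csf1r was at 21.6, 22.3 and 22.1 TPM (0.14 ± 0.03, adjusted p = 0.00116). Adgre1 was at 5.72, 5.29 and 5.27 TPM (0.20 ± 0.06, adjusted p = 0.0252). All values of these 3 genes lay above those in FVB, as did those of 22.9% of all genes. The call of Adgre1 rested on single libraries: it was lost without the library labelled Tg-GRK2 replicate 1, which stood apart through 18S RNA (0.16, adjusted p = 0.128), and without FVB replicate 2 (0.18, adjusted p = 0.0852). DESeq2 gave 0.21 for Adgre1 (adjusted p = 0.0748).

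Among the genes that were lower, Cd163 was at 5.72, 5.71 and 5.70 TPM, below each FVB library (-0.40 ± 0.06, adjusted p = 2.2e-05). Lyve1 was at 11.6, 12.3 and 11.3 TPM (-0.24 ± 0.05, adjusted p = 0.000767). Ccr2 was at 1.90, 1.99 and 2.02 TPM, close to the lowest FVB value of 2.11 TPM (-0.37 ± 0.09, adjusted p = 0.00557). The 3 genes were lower than FVB without overlap, as were 10.8% of all genes tested. On log2(TPM + 0.1) limma did not call Ccr2 (-0.26, adjusted p = 0.0946), and with the most abundant transcript neither Ccr2 (-0.27, adjusted p = 0.377) nor Cd163 (-0.27, adjusted p = 0.571) was called. When each library was left out in turn, the log2 fold changes ranged from -0.45 to -0.34 for Cd163, from -0.27 to -0.21 for Lyve1 and from -0.43 to -0.32 for Ccr2, and the 3 genes stayed lower past the threshold.

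The other 4 members did not pass the test with edgeR. Cd68 was at 10.5, 11.7 and 11.6 TPM (0.08 ± 0.07, adjusted p = 0.502), and limma on log2(TPM + 0.1) called it higher (0.19, adjusted p = 0.0298). Trem2 was at 3.02, 3.97 and 3.77 TPM (0.17 ± 0.14, adjusted p = 0.42). Gpnmb was at 0.818, 0.697 and 0.805 TPM (0.28 ± 0.16, adjusted p = 0.255), and Folr2 at 13.1, 13.7 and 15.7 TPM (0.11 ± 0.08, adjusted p = 0.402). Trem2, Gpnmb and Folr2 overlapped with FVB in TPM. Gpnmb had 47 to 56 reads and Trem2 65 to 88 reads a library here, and the smallest difference detectable at that depth was not tested.

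**Figure D2:**
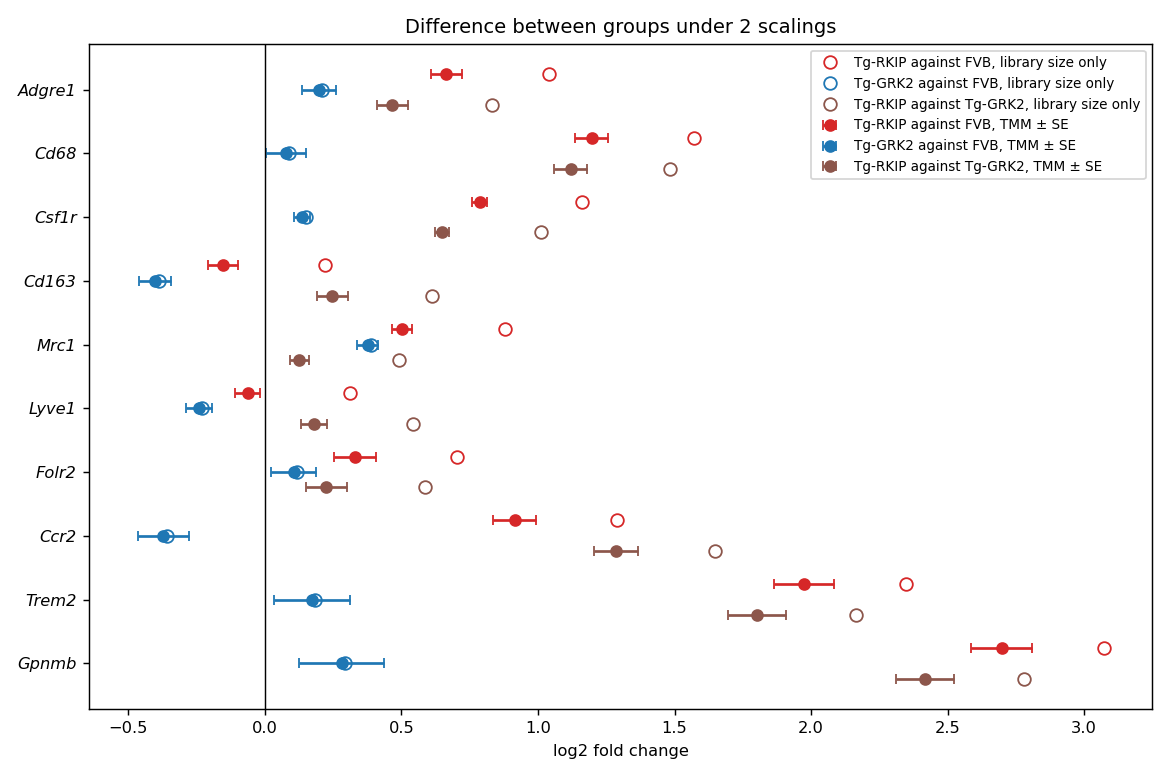
Log2 fold change (horizontal axis) of each gene in the 3 comparisons, with TMM scaling and SE (filled points and bars) and with scaling to library size only (open points). In Tg-RKIP the open points lie to the right of the filled ones by about the shift of the median gene (0.38), so that Cd163 and Lyve1 change sign, and Gpnmb (2.70) and Trem2 (1.97) lie farthest from 0 under TMM.

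Set directly against the libraries labelled Tg-GRK2, Tg-RKIP was called higher in all 10 members, beside 37.9% of all genes called higher and 36.6% called lower. The differences were largest for Gpnmb (2.42 ± 0.11, adjusted p = 5.97e-15), Trem2 (1.80 ± 0.11, adjusted p = 9.68e-13) and Ccr2 (1.29 ± 0.08, adjusted p = 3.76e-12). Cd68 (1.12 ± 0.06) and Csf1r (0.65 ± 0.03) followed. The resident genes differed least, at 0.25 ± 0.06 for Cd163, 0.22 ± 0.08 for Folr2, 0.18 ± 0.05 for Lyve1 and 0.13 ± 0.03 for Mrc1. The call of Folr2 (adjusted p = 0.011) was lost without the library labelled Tg-GRK2 replicate 1 (0.17, adjusted p = 0.0731) and without Tg-RKIP replicate 3 (0.18, adjusted p = 0.0546). When a single transcript stood for each gene, the sign of Mrc1 turned (-0.11, adjusted p = 0.0564) and so did that of Cd163 (-0.13, adjusted p = 0.668). Lyve1 (0.13, adjusted p = 0.0558) and Folr2 (0.16, adjusted p = 0.155) kept their sign but lost their calls.

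A ratio of 2 genes within a library does not depend on how libraries are scaled. Each member was therefore set against Csf1r in TPM of the same library, with exact two-sided permutation tests over libraries, which cannot go below 0.1 with 3 against 3. In Tg-RKIP against FVB, 7 of the 9 members had ratios that did not overlap between the groups. Per Csf1r, Gpnmb, Trem2 and Cd68 were higher, Lyve1, Cd163, Folr2 and Adgre1 were lower, and Ccr2 and Mrc1 overlapped. The 3 higher members compare with 8.75% of the other 15503 genes tested, and the 4 lower ones with 74.6%, so that a lower ratio to Csf1r, which itself rose, was the rule over all genes. For each of the 7 the exact permutation test gave p = 0.1, the smallest value possible.

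Of the 4 resident genes, 3 lay on the lower side, a share near the 74.6% of all genes that did so. Both lipid-associated genes lay on the higher side, where 8.75% of all genes lay. Lyve1 was at 0.697 ± 0.025 of the Csf1r level in FVB and at 0.394 ± 0.023 in Tg-RKIP (mean ± s.d., n = 3), a log2 difference of -0.83. Cd163 was at 0.382 ± 0.037 and 0.215 ± 0.003 (-0.82), and Folr2 at 0.674 ± 0.053 and 0.499 ± 0.038 (-0.43). These 3 receptors were lower per Csf1r in every Tg-RKIP library. Trem2, in contrast, was at 0.159 ± 0.018 in FVB and 0.375 ± 0.019 in Tg-RKIP (1.24), and Gpnmb at 0.038 ± 0.013 and 0.115 ± 0.008 (1.65). Cd68 was at 0.516 ± 0.020 and 0.801 ± 0.034 (0.63), and its log2 difference was smaller in reads than in TPM (0.41). Adgre1 differed little (-0.11). The sizes depended on the reference gene, while the signs did not turn with Cd68 as the reference. Per Cd68, Trem2 was at 0.61 and Gpnmb at 1.01, and Lyve1 and Cd163 were both at -1.46. Folr2 was at -1.07 and Adgre1 at -0.74 on that reference.

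The ratios of Ccr2 and Mrc1 to Csf1r overlapped between Tg-RKIP and FVB, and for both the result depended on the reference gene. The ratio of Ccr2 was 0.125 ± 0.014 in FVB and 0.137 ± 0.008 in Tg-RKIP, with overlapping ranges (0.14, exact p = 0.3). That value rested on single FVB libraries. Without FVB replicate 1 it was 0.22 and the ranges no longer overlapped, and without FVB replicate 3 it was 0.06. Set against Adgre1 instead, Ccr2 was higher in every Tg-RKIP library (0.25, exact p = 0.1), and against Cd68 it was lower in every one (-0.49, exact p = 0.1). For Mrc1 the ratio was 0.638 ± 0.016 and 0.628 ± 0.030 in TPM (-0.02, exact p = 0.7), with overlap against Adgre1 (0.09, exact p = 0.4) and without overlap against Cd68 (-0.65, exact p = 0.1). In reads, Mrc1 per Csf1r was lower in every Tg-RKIP library (-0.28, exact p = 0.1), where short transcript models carry less weight. The signs of the 7 separate members were unchanged in reads.

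In the libraries labelled Tg-GRK2, 4 members differed from FVB per Csf1r without overlap (exact p = 0.1 each). Cd163 (-0.55), Ccr2 (-0.47) and Lyve1 (-0.39) were lower, as were 43.7% of all genes, and Mrc1 (0.22) was higher, as were 4.84%. In reads Gpnmb per Csf1r was also higher without overlap (0.15, exact p = 0.1). The ratio of Ccr2 was 0.090 ± 0.002, below that in FVB. Lyve1 and Cd163 were thus lower per Csf1r in both transgenic groups, which share their controls, and lower in Tg-RKIP than in the libraries labelled Tg-GRK2 (-0.44 and -0.27, exact p = 0.1 each). With Adgre1 as the reference, Cd163 overlapped between the transgenic groups (-0.12, exact p = 0.2) and Lyve1 did not (-0.29, exact p = 0.1). Ccr2 per Csf1r was higher in Tg-RKIP than in the libraries labelled Tg-GRK2 (0.61, exact p = 0.1), whereas per Cd68 it overlapped (-0.03, exact p = 0.4).

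**Figure D3:**
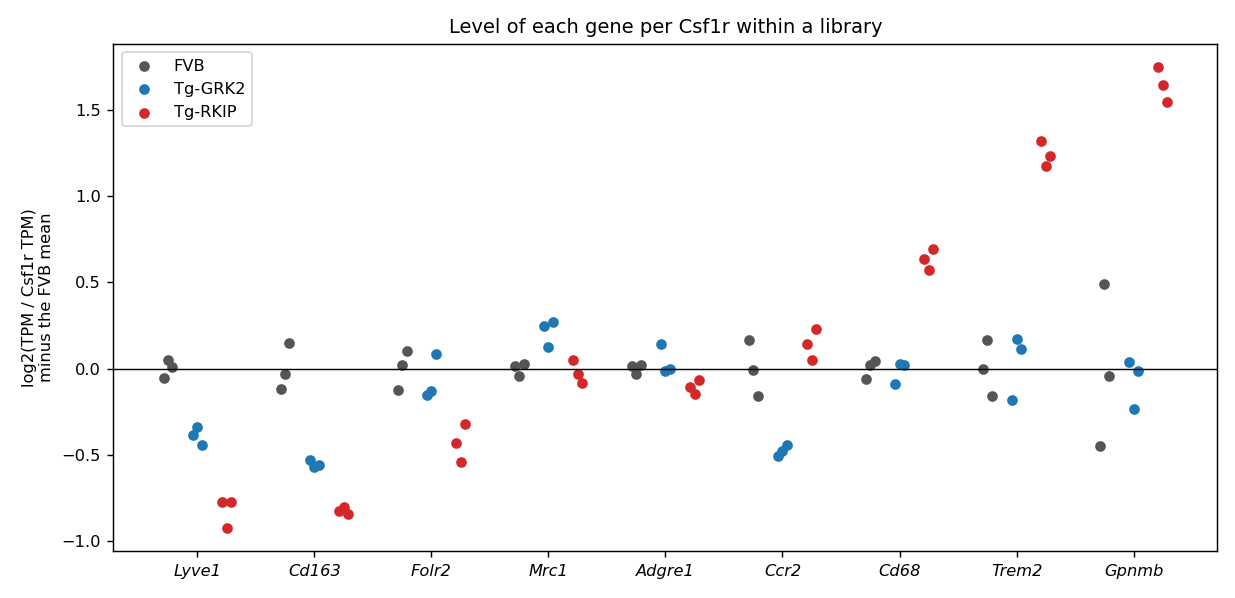
Level of each gene divided by that of Csf1r in the same library, as log2 and minus the mean of the FVB libraries (vertical axis), for the 9 libraries (points, coloured by group). The Tg-RKIP points of Lyve1 and Cd163 lie below those of both other groups, with means of -0.83 and -0.82 against FVB, and those of Cd68, Trem2 and Gpnmb above both, with means of 0.63, 1.24 and 1.65.

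Described over the classes, the mean log2 level of Trem2 and Gpnmb minus that of the 4 resident genes was -0.96 ± 0.07 in Tg-RKIP, -2.93 ± 0.28 in FVB and -2.75 ± 0.04 where the label was Tg-GRK2. For Ccr2 minus the resident genes it was -1.56 ± 0.06, -2.22 ± 0.23 and -2.50 ± 0.03. In Tg-RKIP the lipid-associated class was farther from its position in FVB than Ccr2 was. These are descriptions of chosen members and were given no test.

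For 3 members, the share of reads on transcript models that encode no protein was higher in every Tg-RKIP library than in every FVB library. Of the members, 8 have models with and without a protein, and of all 10973 such genes tested 12.9% were higher in the same way. For the other 5 the shares overlapped, with Trem2 at 4.65% ± 0.55 in Tg-RKIP and 5.61% ± 3.7 in FVB. For Mrc1 (chromosome 2, 14234203 to 14336868 on GRCm39, plus strand), a retained-intron model of 2069 bases at the 3' end of the gene, from 14333372 to 14336738, had 343, 331 and 195 reads in Tg-RKIP, against 14, 7 and 20 in FVB and 18, 13 and 14 in the libraries labelled Tg-GRK2. That was 12.99% ± 3.4 of the Mrc1 reads in Tg-RKIP and 1.149% ± 0.60 in FVB. The groups did not overlap (exact p = 0.1). The full-length coding model of 5374 bases had 1715, 2340 and 1771 reads in Tg-RKIP and 1179, 1302 and 1130 in FVB. Mrc1 was 2.24-fold higher in TPM and 1.42-fold higher in reads with TMM, and Csf1r was 2.28-fold and 1.72-fold higher. These scales differ for all genes, since the median log2 fold change was 0.43 with limma on log2(TPM + 0.1) and 0.01 with TMM.

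Cd163 (chromosome 6, 124281615 to 124307486, plus strand) had a retained-intron model with 34.6% ± 0.97 of its reads in Tg-RKIP and 21.1% ± 1.6 in FVB, without overlap (exact p = 0.1). For Cd68 (chromosome 11, 69555039 to 69556979, minus strand), a short processed transcript had 15.1% ± 4.2 of the reads in Tg-RKIP and 0 of 690 reads in FVB, which allows a share of up to 0.435%. In the libraries labelled Tg-GRK2 the shares of Mrc1, Cd163 and Cd68 overlapped with those of FVB. How reads were divided between transcripts is not given in the sources used here, and 50-base reads that fit several models cannot be assigned to 1 of them for certain. The limits cover counting error only.

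**Figure D4:**
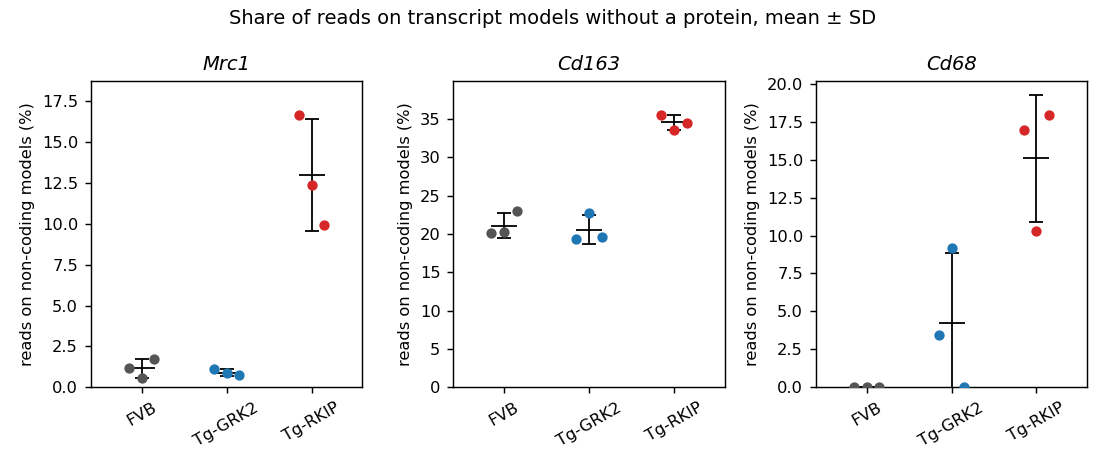
Share of the reads of Mrc1, Cd163 and Cd68 that were assigned to transcript models without a protein (vertical axes, percent, starting at 0), in each library (points), with the mean and s.d. of each group (bars). The 3 Tg-RKIP libraries lie above all FVB libraries for each gene, with means of 12.99%, 34.6% and 15.1% against 1.149%, 21.1% and 0%.

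The remaining members lie at chromosome 17, 57665691 to 57790527 (Adgre1, plus strand) and 48653429 to 48661175 (Trem2, plus strand), chromosome 7, 110449814 to 110462446 (Lyve1, minus strand) and 101489195 to 101506401 (Folr2, minus strand), chromosome 9, 123901987 to 123913594 (Ccr2, plus strand), chromosome 6, 49013480 to 49047863 (Gpnmb, plus strand) and chromosome 18, 61233670 to 61265221 (Csf1r, plus strand), all on GRCm39. Mir511 lies inside Mrc1 and had 0 reads in each of the 9 libraries.

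The other genes of the same pathways were read from lists. Their counts stand beside the shares over all genes tested, 36.8% higher and 37.1% lower in Tg-RKIP against FVB. In the libraries labelled Tg-GRK2 these shares were 12.2% higher and 12.2% lower. Of 15 further genes of macrophages in general, 15 were higher in Tg-RKIP than in FVB, with a median log2 fold change of 1.05 beside 0.01 over all genes. Fcgr1, a receptor for antibody-coated particles (1.07 ± 0.16), Mertk, a receptor for dying cells (0.21 ± 0.09), and C1qa, a chain of complement C1q (0.94 ± 0.03), were among them. Of the same 15 in the libraries labelled Tg-GRK2, 3 were higher (C1qc, Lyz2 and Itgam, at 0.13, 0.16 and 0.48) and 1 was lower (Ctss, -0.25), beside 12.2% of all genes each way.

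Of 14 further genes of resident macrophages, 13 were higher in Tg-RKIP (median 0.72), beside 36.8% of all genes tested. Timd4, a receptor for phosphatidylserine on long-lived resident cells, was the 1 that did not pass (-0.04 ± 0.11, adjusted p = 0.775). Cbr2 (0.94 ± 0.04) and F13a1 (0.15 ± 0.04) rose. So the named members Lyve1 and Cd163 and the list gene Timd4 gave values near 0 with TMM, while Stab1 (0.87), Maf (0.96) and Cd209g (1.57), which was picked after its value was seen, had larger values. With library-size scaling all 14 were called higher, beside 62.6% of all genes. Of these 14 in the libraries labelled Tg-GRK2, 4 were higher (Cbr2, F13a1, Stab1 and Maf, at 0.90, 0.45, 0.30 and 0.25) and 2 were lower (Selenop and Igf1, at -0.12 and -0.19).

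Of 12 genes of recruited monocytes, 10 were tested and, beside 36.8% of all genes, 9 were higher in Tg-RKIP (median 1.11). They included Ly6c2 (1.22 ± 0.42), Plac8 (2.35 ± 0.34) and Il1b (1.01 ± 0.27), and F10 did not pass (0.99 ± 0.45, adjusted p = 0.05). Levels ranged widely, from Ly6c2 with means of 0.556 TPM in FVB and 2.74 TPM in Tg-RKIP to Cd74 with 201.6 and 378.3 TPM. Cx3cr1 (0.32) and Hp (1.15) were higher and Cd74, the invariant chain of class II molecules, lower (-1.25 ± 0.03, adjusted p = 3.34e-19) in the libraries labelled Tg-GRK2. The 4 ligands of CCR2 were all higher in Tg-RKIP (median 0.75), with Ccl2 at 0.70 ± 0.17, Ccl7 at 0.81 ± 0.18, Ccl8 at 2.16 ± 0.10 and Ccl12 at 0.58 ± 0.21. Ccl8 was also higher in the libraries labelled Tg-GRK2 (0.60 ± 0.12), where the other 3 did not pass.

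Of 12 further genes linked to lipid-associated macrophages, 7 were higher and 2 lower in Tg-RKIP (median 0.58), beside 36.8% and 37.1% of all genes. Spp1, the secreted matrix protein osteopontin, had the largest difference of this list, 67.9 TPM on average against 2.16 TPM in FVB (4.56 ± 0.07, adjusted p = 9.51e-23). Lgals3, which encodes galectin-3 (3.11 ± 0.09), and Apoe, a lipid carrier (1.73 ± 0.02), also rose. Lpl (-0.99 ± 0.01) and Cd36 (-0.91 ± 0.02), which fell, encode a lipase and a fatty acid transporter that cardiac myocytes also express. In the libraries labelled Tg-GRK2, Spp1 was lower (-1.42 ± 0.18, adjusted p = 4.56e-06), as were Lpl, Cd63 and Cd36 (-0.22, -0.18 and -0.09), and Apoe and Abca1 were higher (0.20 and 0.25).

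Of the genes that carry signals of TREM2, 6 of 7 were higher in Tg-RKIP (median 0.83), beside 36.8% of all genes tested. Among the 6 were the adaptor Tyrobp (1.10 ± 0.08), the kinase Syk (0.20 ± 0.04) and the phospholipase Plcg2 (1.67 ± 0.05). Card9 did not pass (0.32 ± 0.21). EdgeR called 0 of the 7 in the libraries labelled Tg-GRK2, with log2 fold changes from -0.20 to 0.11, 0 with an unadjusted p under 0.05, and 0 called under both other scalings. In a list of colony-stimulating factors, their receptors and myeloid transcription factors, 7 of 7 tested genes were higher in Tg-RKIP (median 0.73). Csf1 (0.14 ± 0.04) and Il34 (0.73 ± 0.13) encode ligands of the CSF1 receptor, and Csf2ra (0.39 ± 0.10) and Csf2rb (1.00 ± 0.13) encode subunits of the receptor for another factor, GM-CSF. Csf1 (0.29) and Cebpa (0.54) were higher and Cebpb (-0.42) lower in the libraries labelled Tg-GRK2.

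The partners of CD163 in haem handling were 6 of 6 higher in Tg-RKIP (median 0.82), while Cd163 itself was not. Haptoglobin, Hp, rose by 2.97 ± 0.07, the haem oxygenase Hmox1 by 1.43 ± 0.06 and the iron exporter Slc40a1 by 0.67 ± 0.05. In the libraries labelled Tg-GRK2, Hp was higher (1.15), and Hmox1, Ftl1 and Fth1 were lower (-0.41, -0.19 and -0.10). Of 19 lysosomal genes, the compartment of CD68 and GPNMB, 13 were higher and 4 lower in Tg-RKIP (median 0.56), beside 36.8% and 37.1% of all genes. Lamp1 was at 0.41 ± 0.02 and Ctsb at 0.43 ± 0.02. The 4 that fell were Lamp2 (-0.10), Npc1 (-1.18), Scarb2 (-0.47) and Mitf (-1.05), and Lamp2 was not lower when counts were scaled to library size only. Ctsb alone of the 19 was called in the libraries labelled Tg-GRK2 (0.08 ± 0.02).

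**Figure D5:**
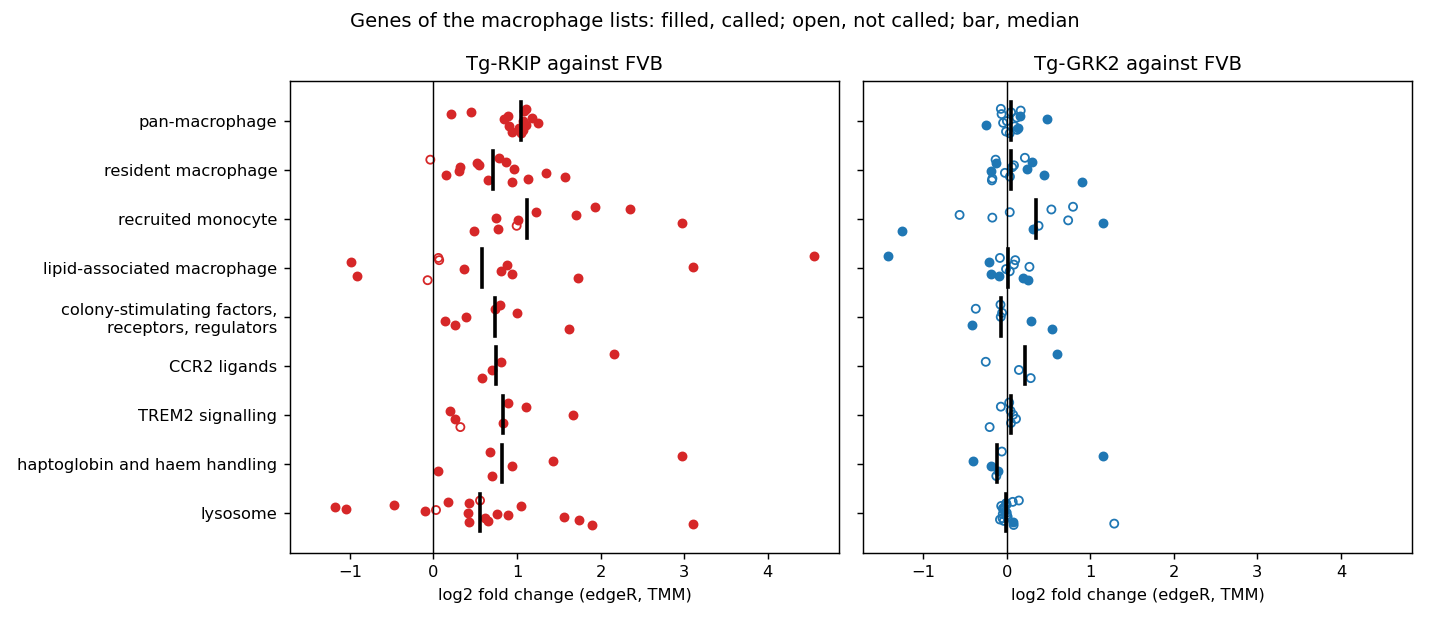
Log2 fold change with TMM (horizontal axis) of the genes of 9 macrophage lists, in Tg-RKIP against FVB (left) and in the libraries labelled Tg-GRK2 against FVB (right). Filled points passed the test, open points did not, and bars are list medians, which lie between 0.56 and 1.11 in the left panel and between -0.11 and 0.35 in the right panel.

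Markers of other cell types moved with the members. Their counts stand beside 36.8% of all genes called higher and 37.1% lower in Tg-RKIP. Where the label was Tg-GRK2, 12.2% of all genes were called higher and 12.2% lower. In Tg-RKIP, 6 of 6 adipocyte markers were higher, with a summed level of 166 to 174 TPM a library against 16.3 to 17.8 TPM in FVB and 28.0 to 31.3 TPM in the libraries labelled Tg-GRK2, and Adipoq (2.81 ± 0.08) and Plin1 (2.47 ± 0.07) among them. Markers of T and NK cells (5 of 5 tested, Cd3e 0.95 and Cd3d 1.56), mast cells (5 of 5, Cpa3 1.13 and Mcpt4 1.41) and neutrophils (4 of 4 tested, S100a8 4.06 and S100a9 2.83) were also higher. Ncr1, the T and NK cell marker that was not tested, had a lower mean in Tg-RKIP (0.265 TPM) than in FVB (0.418 TPM). The summed levels stayed low for T and NK cells, where Tg-RKIP libraries reached 7.96 TPM and FVB libraries 2.36 TPM, and for neutrophils, where they reached 10.7 TPM and 1.42 TPM, and the neutrophil marker Ly6g had 0 reads in 8 libraries and 1 in the other. Of 6 markers of dendritic cells, 4 were higher (Flt3 2.35) and 1 lower (Zbtb46 -0.47), with a summed level of 11.2 to 11.9 TPM against 6.64 to 6.89 TPM. Of 6 proliferation genes 5 were higher (Top2a 0.50), and Mki67 did not pass (-0.09 ± 0.13). Fewer markers differed from FVB where the label was Tg-GRK2: 4 of 6 adipocyte markers were higher (median 1.09, Adipoq 0.95 and Plin1 1.32), as were S100a8 (2.51), Kit (0.41), Mki67 (0.42), Top2a (0.39) and the lymphatic markers Prox1 (0.34) and Pdpn (0.29), and of 7 cardiac myocyte markers 5 were lower (Tnnt2 -0.10) and 2 higher (Myh6 0.12 and Ryr2 0.38). The part of these markers in the differences of the members was not tested.

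For Lyve1, which lymphatic endothelium shares, 5 of 6 other lymphatic markers were higher in Tg-RKIP and 1 was lower, beside 36.8% and 37.1% of all genes. Flt4 was at 0.52 ± 0.05 and Prox1 at -0.64 ± 0.03, and the summed level of the list was 182 to 192 TPM in Tg-RKIP, 66.5 to 67.0 TPM in FVB and 72.5 to 79.8 TPM in the libraries labelled Tg-GRK2. The chemokine gene Ccl21a made up most of that sum in Tg-RKIP, at 133.7 TPM on average, against 33.1 and 35.7 TPM in the other groups. Lyve1 therefore did not rise with TMM in libraries in which most of these markers rose. Cardiac myocyte markers checked the tissue: the summed level of 7 genes was 45808 to 48684 TPM over all libraries, and 6 of them were lower in Tg-RKIP with TMM (Myh6 -1.35, Tnnt2 -0.10). Scaled to library size only, 5 were lower, and Tnnt2 and Actc1 were called higher. Of 9 genes of lung epithelium 3 were tested (Scgb1a1, Scgb3a2 and Cyp2f2), and these were present in both transgenic groups and near 0 in FVB. The untested ones, among them Sftpc, Sftpb, Sftpa1 and Sftpd, had means of at most 0.33 TPM in each group. The summed level of that list of 9 was 58.6 to 62.1 TPM in Tg-RKIP, 147 to 156 TPM in the libraries labelled Tg-GRK2 and 0.284 to 0.549 TPM in FVB, and it came mostly from Scgb1a1 (49.4, 128 and 0 TPM on average) and Scgb3a2. Of 8 markers of alveolar macrophages, 3 were tested, and Siglecf had 0 to 3 reads a library. Marco was in the order of the 3 tested lung epithelium genes, at 0.425 TPM in Tg-RKIP, 0.607 TPM in the libraries labelled Tg-GRK2 and 0.092 TPM in FVB on average. Both transgenic groups were called higher than FVB (1.77 ± 0.44 and 2.63 ± 0.41), and Tg-RKIP was called lower than the other transgenic group with TMM (-0.87 ± 0.30, adjusted p = 0.0131), though not with library-size scaling. Ear2 was higher in Tg-RKIP than in FVB (1.39 ± 0.45) and did not pass in the libraries labelled Tg-GRK2 (-0.09 ± 0.57), and Car4 was lower than in FVB for both (-0.65 ± 0.09 and -0.58 ± 0.09). The summed level of the list, 11.4 to 13.02, 9.60 to 10.1 and 12.0 to 12.3 TPM, was mostly Car4 (10.07, 8.44 and 11.2 TPM on average).

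For 3 members the list genes with the most similar pattern over the 9 libraries were sought, by the root mean square difference of centred log2 CPM among 148 genes. Nearest to Gpnmb were Lgals3 (0.23), Cfd (0.26) and Adipoq (0.31), the last 2 from the adipocyte list. Nearest to Ccr2 were Cd63 (0.09), Ftl1 (0.12) and Ctss (0.14). Nearest to Lyve1 were Actc1 (0.07), Fth1 (0.08) and Tnnt2 (0.09), of which Actc1 and Tnnt2 are genes of cardiac myocytes. The measure describes these libraries, in which 3 groups set most of each pattern.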

How the data were processed

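Total RNA of frozen, pulverised hearts was sequenced as single 50-base reads. The authors deposited whole-number read counts and TPM for 127558 transcripts. The submitters' processing notes name the build GRCm39, and the aligner, counter and strand setting are not given in the sources used here. The deposited TPM equalled TPM recomputed from counts and lengths to within 5.5e-06. Transcripts were summed by gene name, both as counts and as TPM. Counts of all 9 libraries were fitted together with edgeR 4.0.16 (R 4.3.3): filterByExpr, TMM, a mean per group, glmQLFTest, and Benjamini-Hochberg adjustment over 15504 genes with a threshold of 0.05. The biological coefficient of variation was 2.86%, between 3 libraries a group. Pairs of libraries of a group were also set against counting noise, by a chi-square over genes per degree of freedom. It was 1.72 to 2.07 in Tg-RKIP and 1.86 to 2.63 in FVB, where 1 is counting noise alone. The small adjusted p-values rest on this small spread, and its source was not tested. Exact permutation tests over libraries (scipy 1.17.1) served for ratios and transcript shares. Alternatives used DESeq2 1.42.0, limma 3.58.1 and those listed at the end. The fit was tested on simulated data for Tg-RKIP against FVB with 15504 genes: of 50 genes changed by each size, it recovered 37 at 1.5-fold, 45 at 2-fold, 50 at 4-fold and 45 at 0.5-fold, and 14 of 191 calls were false. At 1.5-fold and at 0.5-fold, 49 of the 50 passed the filter. The simulated counts took their spread from the fit itself, and most genes were left unchanged. In the data 36.8% of all genes were called higher and 37.1% lower. The simulation therefore cannot show how the fit or the TMM scaling performs with so many differences.

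The 10 members and the lists were chosen with earlier results of these data known, so the counts are descriptions. Named were all members, the first 3 tested genes of each of 9 pathway lists, the first 2 of each of 11 marker lists (1 of which is not reported here), any gene needed to name a count of up to 5, the 3 nearest patterns of Lyve1, Ccr2 and Gpnmb, and Pebp1 and Grk2. Some genes were named outside this rule, among them Cd209g, Csf2rb, Ccl21a and Ly6g, and Cd209g was picked after its value was seen. No set test was run.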

Additional observations from a re-analysis of the deposited data

Results flagged for a closer look

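Ccr2 was flagged because its difference from FVB had opposite signs in the 2 transgenic groups, each past the threshold of edgeR's quasi-likelihood test, and the contrast between these groups, which is the test of that difference, also passed. The log2 fold change against FVB was 0.91 in Tg-RKIP (adjusted p = 7.5e-10) and -0.37 in the libraries labelled Tg-GRK2 (adjusted p = 0.00557), and the difference between them was 1.29 (adjusted p = 3.76e-12). In TPM, the 3 Tg-RKIP libraries were above and the 3 libraries labelled Tg-GRK2 below each FVB library. With limma on log2(TPM + 0.1) the second of the changes against FVB did not pass (-0.26, adjusted p = 0.0946), nor did it with the most abundant transcript (-0.27, adjusted p = 0.377).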

How the results depend on the processing

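Of the log2 fold changes of the 10 members under the alternatives, 164 of 180 in Tg-RKIP against FVB, 160 of 180 in the libraries labelled Tg-GRK2 against FVB and 169 of 180 between the transgenic groups kept their sign and their side of the threshold. In Tg-RKIP against FVB, scaling to library size only gave 0.22 for Cd163 and 0.31 for Lyve1, limma gave 0.36 and 0.36 on log2(TPM + 0.1), with or without the filter, and 0.32 and 0.34 on log2(TPM + 1), where TMM had both below 0. Under these 4 settings 0 members were lower instead of 1, and likewise with the most abundant transcript of each gene. A test against a fold of 1.5 called 5 members in Tg-RKIP against FVB (Cd68, Csf1r, Ccr2, Trem2 and Gpnmb; 5 higher and 0 lower), 0 in the libraries labelled Tg-GRK2 against FVB (0 higher and 0 lower) and 5 between the transgenic groups (5 higher). The share of all genes called in this test was taken only for the libraries labelled Tg-GRK2 against FVB (1%). Whether the counts of 5 exceed that share in their own comparisons was therefore not tested. With the most abundant transcript, the calls of Trem2 (1.57) and Cd163 (-0.41) were lost in Tg-RKIP against FVB, 1 member was lower in the libraries labelled Tg-GRK2 than in FVB (Ccr2 and Cd163, both -0.27, were no longer called), Cd68 (-0.0055) and Trem2 (-0.75) turned sign there without passing the test, and 6 members were higher in Tg-RKIP than in the libraries labelled Tg-GRK2, with Cd163 at -0.13 and Mrc1 at -0.11. With the most abundant transcript, the calls of Lyve1 (0.13) and Folr2 (0.16) between the transgenic groups were lost too. Setting Ccr2 against Cd68 in place of Csf1r gave -0.032 between the transgenic groups, with overlapping ranges. The causes were not tested, except that a stricter null hypothesis calls fewer genes by construction. Leaving out each library in turn gave 8 to 9 members called in Tg-RKIP against FVB (0 to 1 lower), 5 to 6 in the libraries labelled Tg-GRK2 against FVB and 9 to 10 between the transgenic groups.

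The replicate number as a block left 9, 6 and 10 members called in the 3 comparisons and changed no call of a member. Samples of the same number did not deviate together (correlations from -0.04 to 0.04). Pairing by number is not given in the sources used here, and correlations near 0 cannot exclude it where libraries of a group differ so little. Depth limits Gpnmb and Trem2 most, at 35 to 46 and 56 to 80 reads in FVB.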
